A study of Mus musculus with 24 samples.

Results

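The complement system is a cascade of proteins that mark cells and debris for uptake, call in immune cells and form pores in membranes. The genes described are 9 complement components and regulators, chosen by name from the 55385 genes counted. They are C1qa, C1qb and C1qc, which encode the chains of the recognition molecule C1q, C1ra, which encodes a protease that C1q carries, C4b and C3, which encode the proteins deposited on targets, Cfb, the protease of the alternative pathway, Serping1, the inhibitor of the C1 proteases, and C7, a part of the membrane pore.

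Complement can start when C1q binds a target and the proteases C1r and C1s cut C4 and C2, or when C3 activates slowly by itself and factor B amplifies it. These routes and the lectin pathway all cut C3, whose fragments coat the target and are read by receptors on phagocytes. The cascade ends with pore assembly from C5 to C9. Plasma complement comes mostly from the liver, but C1q is made mainly by macrophages, and in skeletal muscle fibroblasts, adipocytes and infiltrating macrophages also make components.

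RNA was measured in the gastrocnemius, a calf muscle, of female C57BL/6J mice after delivery of Klotho, a protein with a circulating form. Mice were young (3 to 6 months), old (21 to 24 months) or oldest-old (27 to 29 months). Old and oldest-old mice received 3e8 vector genomes of an AAV8 vector by tail vein, carrying mouse Klotho (AAV-Kl) or GFP as the vector control, and muscle was taken 14 days later. The LP1 promoter of the vector is active in liver, so Klotho from it would reach muscle through the circulation. Circulating Klotho was not examined here. Some young mice received the GFP vector (young GFP) at the same dose, and their muscle was taken after the same time. Other young mice belonged to a sham group (young sham), whose procedure the labels and methods do not describe. No young mice received AAV-Kl. The 6 groups were young sham, young GFP, old GFP, old AAV-Kl, oldest-old GFP and oldest-old AAV-Kl, with 4 libraries in each and 24 in all. Between 36415886 and 59733985 reads per library fell on genes, with a median of 49486060.5.

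Levels are given as CPM (reads per 1000000 reads on genes) after scaling by TMM, a method that sets libraries to a common level. The log2 fold changes are from 1 edgeR fit of all 24 libraries. A gene was called where the Benjamini-Hochberg adjusted p of the quasi-likelihood test was under 0.05 over the 17803 genes tested. Of the 9 complement genes, 8 had enough reads to be tested. The exception was Cfb, with 52 reads in all 24 libraries together, 0 reads in 8 libraries and 7 reads at most. Of the exon bases of Cfb, 79.5% are shared with the overlapping gene model Gm20547, and reads on shared bases are not counted for either gene, so the level of Cfb could not be determined.

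The tissue label was checked first. The 10 muscle fiber markers, of which the fast myosin Myh4 was the most abundant, summed to between 124663 and 189483 CPM and had reads in every library. Transcripts of other tissues were uneven between libraries. The 20 hepatocyte markers had a mean log2 CPM above 0 in 4 libraries, old GFP 1 (4.46), old GFP 4 (1.69), old AAV-Kl 4 (1.96) and young sham 4 (0.01). Albumin (Alb) reached 662 CPM in old GFP 1, 58.9 CPM in old GFP 4, 107 CPM in old AAV-Kl 4 and 15.8 CPM in young sham 4. Young sham 2 (-0.27, Alb 9.95 CPM) and old AAV-Kl 1 (-0.75, Alb 13.8 CPM) lay just under 0. Both were kept when hepatocyte-rich libraries were left out. In each young GFP library 11 of the 20 hepatocyte markers had 0 reads, and Fgg, Ambp, Plg, Kng1, Cyp3a11 and Cps1 had 0 reads in all 4. The 6 keratinocyte markers, with Krt10 as the most abundant, had a mean log2 CPM above 0 in 5 libraries. Their sums were 124 CPM in young sham 4, 108 CPM in young GFP 1, 328 CPM in young GFP 3, 62.2 CPM in old AAV-Kl 2 and 21.7 CPM in oldest-old AAV-Kl 4, against a median of 1.72 CPM over all libraries.

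The complement genes differed widely in level. Per kilobase of exon (RPKM, CPM divided by the summed exon length), the mean over the 24 libraries was 40.1 for Serping1, 27.1 for C3, 14.95 for C1qa, 11.05 for C1qb, 6.26 for C1qc, 5.11 for C4b, 4.74 for C1ra and 0.352 for C7. Neighbors in this order overlapped across libraries except for C7, which lay below every other tested member. For comparison, the adipocyte-derived factor D gene Cfd averaged 185 RPKM, and the membrane regulators Cd55 and Cd59a averaged 14.6 and 14.3 RPKM. C4a, a close relative of C4b in sequence, averaged 0.0370 RPKM, and how reads were split between this pair was not tested.

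C1qa (chr4:136895917-136898803), C1qc (chr4:136889804-136893065) and C1qb (chr4:136880129-136886187) lie side by side on the minus strand in GRCm38. The 3 genes kept a narrow ratio in every library. C1qb divided by C1qa ranged from 0.634 to 0.928 in CPM, with a coefficient of variation of 8.84%, and C1qc divided by C1qa ranged from 0.658 to 0.858, with a coefficient of variation of 7.29%. The level of C1qa itself had a coefficient of variation of 47.4% and a 5.93-fold range. A similar pairing held for C1ra and C1s1, the protease genes of the C1 complex, whose ratio ranged from 0.414 to 0.554 (coefficient of variation 7.70%). C1s1 shares 18.4% of its exon bases with Gm16567.

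Promoters of C1qb and C3 are printed because levels of C1q and C3 moved together over the libraries, as described further on, and because a recognition gene can be set beside the central component. Promoter entries were present in RefSeq (GRCm38.p6) for 5 of the 9 genes, and for 3 of these the 250 bases before the start lay outside the annotated gene. Both sequences are on the minus strand and end at the base before the start, C1qb at chr4:136886201-136886450 and C3 at chr17:57228137-57228386. Capitals mark a match to GAGGAA, the core bound by the macrophage factor PU.1, in C1qb, and to TTGCNNAA, a form bound by C/EBP factors, in C3.
C1qb: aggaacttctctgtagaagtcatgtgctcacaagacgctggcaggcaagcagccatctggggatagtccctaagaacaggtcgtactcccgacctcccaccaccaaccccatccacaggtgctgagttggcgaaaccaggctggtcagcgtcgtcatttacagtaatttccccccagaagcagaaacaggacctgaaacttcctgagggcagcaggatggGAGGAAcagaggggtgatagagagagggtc
C3: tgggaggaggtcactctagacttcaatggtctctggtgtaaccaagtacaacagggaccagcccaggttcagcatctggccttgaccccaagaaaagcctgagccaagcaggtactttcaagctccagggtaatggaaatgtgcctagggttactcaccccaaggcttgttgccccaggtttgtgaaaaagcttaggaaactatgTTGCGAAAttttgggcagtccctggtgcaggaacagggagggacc
The match in C1qb lies 30 to 25 bases before the start and that in C3 45 to 38 bases before it. Both strands were searched for these letters and for TTCNNNGAA, the form bound by STAT factors. The only match to TTCNNNGAA was in the window of C7, which is not printed, 164 to 156 bases before its start. Of 32851 promoters of the same length, 23.2% held GAGGAA, 9.56% held TTGCNNAA and 7.02% held TTCNNNGAA on either strand, so such matches are common and binding was not measured.

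The first comparison asked how muscle differed between old or oldest-old and young mice that had all received the GFP vector. C1q binds immune complexes and dying cells. Among the groups, young GFP had the lowest mean of C1qa, C1qb and C1qc. C1qa was at 6.998, 11.3, 9.12 and 7.78 CPM in the 4 young GFP libraries. It was at 16.2, 21.5, 13.6 and 10.03 CPM in old GFP and at 21.9, 13.004, 14.9 and 13.7 CPM in oldest-old GFP. Every oldest-old value lay above every young GFP value, whereas old GFP 4 fell within the young range. The log2 fold change of C1qa was 0.80 (SE 0.40, edgeR adjusted p = 0.277) in old and 0.85 (SE 0.40, edgeR adjusted p = 0.156) in oldest-old mice, and neither passed the threshold. C1qb differed by log2 0.78 and 0.91 and C1qc by log2 0.95 and 0.97 in old and oldest-old mice, with edgeR adjusted p between 0.112 and 0.325. In whole tissue, fewer cells of a type and less RNA per cell cannot be told apart. C1ra, the protease that C1q activates, ranged from 8.87 to 12.1 CPM in young GFP, from 11.03 to 18.8 CPM in old GFP and from 10.2 to 16.8 CPM in oldest-old GFP. Its log2 fold changes were 0.53 (SE 0.24) and 0.49 (SE 0.24), with edgeR adjusted p of 0.235 and 0.179.

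C4b (ENSMUSG00000073418.4, chr17:34728380-34743882), whose product is laid down on targets after C1 is activated, had the largest log2 fold change with age of the 8 tested genes. It was at 8.36, 16.7, 16.7 and 6.98 CPM in young GFP. In old GFP the values were 33.3, 35.4, 31.2 and 20.97 CPM, and in oldest-old GFP 46.5, 28.1, 24.8 and 39.3 CPM. All 4 old and all 4 oldest-old libraries lay above the 4 young GFP libraries, which themselves split into a lower pair (1 and 4) and a higher pair (2 and 3). Mean C4b was 12.2 ± 5.24 CPM in young GFP, 30.2 ± 6.41 CPM in old GFP and 34.7 ± 10.01 CPM in oldest-old GFP (SD, n = 4). In oldest-old mice C4b rose by log2 1.51 (SE 0.39, edgeR adjusted p = 0.0135), higher in 4 of 4 libraries. In old mice the difference of log2 1.31 (SE 0.39, edgeR adjusted p = 0.0578) just missed the threshold, and DESeq2 called it (adjusted p = 0.0118, with a range of 0.0118 to 0.934 over 20 alternatives). The oldest-old call was lost without young GFP 1 (edgeR adjusted p = 0.0517, log2 1.35) and without young GFP 4 (edgeR adjusted p = 0.0514, log2 1.31). It was also lost against young sham (edgeR adjusted p = 0.661, log2 0.28) and without the 5 keratinocyte-rich libraries (edgeR adjusted p = 0.0822, log2 1.53). Those 5 include young GFP 1 and 3, and without them the SE was 0.49. Over 20 alternatives the adjusted p of C4b in oldest-old mice ranged from 0.000409 to 0.661.

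C3 (chr17:57203970-57228136) encodes the component on which all routes converge. In young GFP it was at 63.1, 117, 102 and 59.4 CPM. It was at 178, 166, 95.6 and 112 CPM in old GFP and at 140, 97.9, 136 and 122 CPM in oldest-old GFP. Both older groups overlapped the young GFP range, through old GFP 3 and 4 and oldest-old GFP 2. The log2 fold change was 0.69 (SE 0.38, edgeR adjusted p = 0.346) in old and 0.54 (SE 0.38, edgeR adjusted p = 0.371) in oldest-old mice, and C3 passed in neither. The ratio of C3 to C4b in CPM was 7.29 ± 1.02 in young GFP and 3.76 ± 1.15 in oldest-old GFP (SD, n = 4), a description of unequal differences between these genes.

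Serping1 (ENSMUSG00000023224.12, chr2:84765387-84775444) encodes the serpin that shuts off C1r and C1s. It was at 66.2, 86.3, 58.4 and 63.8 CPM in young GFP. In old GFP it was at 97.2, 125, 84.7 and 73.5 CPM, and in oldest-old GFP at 113, 103, 115 and 94.3 CPM. All 4 oldest-old libraries lay above the young GFP libraries, and old GFP 3 and 4 did not clear young GFP 2. Serping1 rose in oldest-old mice by log2 0.63 (SE 0.20, edgeR adjusted p = 0.0350), higher in 4 of 4 libraries and equal to a 1.55-fold ratio of means. In old mice the log2 fold change was 0.47 (SE 0.20, edgeR adjusted p = 0.186). The oldest-old call was lost when a single library was left out, with adjusted p of 0.0908 without young GFP 1, 0.106 without young GFP 3, 0.0936 without young GFP 4, 0.0807 without oldest-old GFP 1 and 0.0807 without oldest-old GFP 3. It was also lost without the keratinocyte-rich libraries (edgeR adjusted p = 0.274, log2 0.48), without the hepatocyte-rich libraries (0.0597), with no filter on low counts (0.0565) and against young sham (0.400). Over all 20 alternatives the log2 fold change of Serping1 stayed positive, between 0.256 and 0.750, and its adjusted p ranged from 0.00866 to 0.400.

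C7, which joins the growing pore, was scarce, with 18 to 103 reads per library. Its level was 0.58 to 0.89 CPM in young GFP, 0.56 to 1.77 CPM in old GFP and 1.06 to 1.21 CPM in oldest-old GFP. The log2 fold changes were 0.74 (SE 0.39) in old and 0.68 (SE 0.39) in oldest-old mice, with edgeR adjusted p of 0.317 and 0.260.

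**Figure D1:**
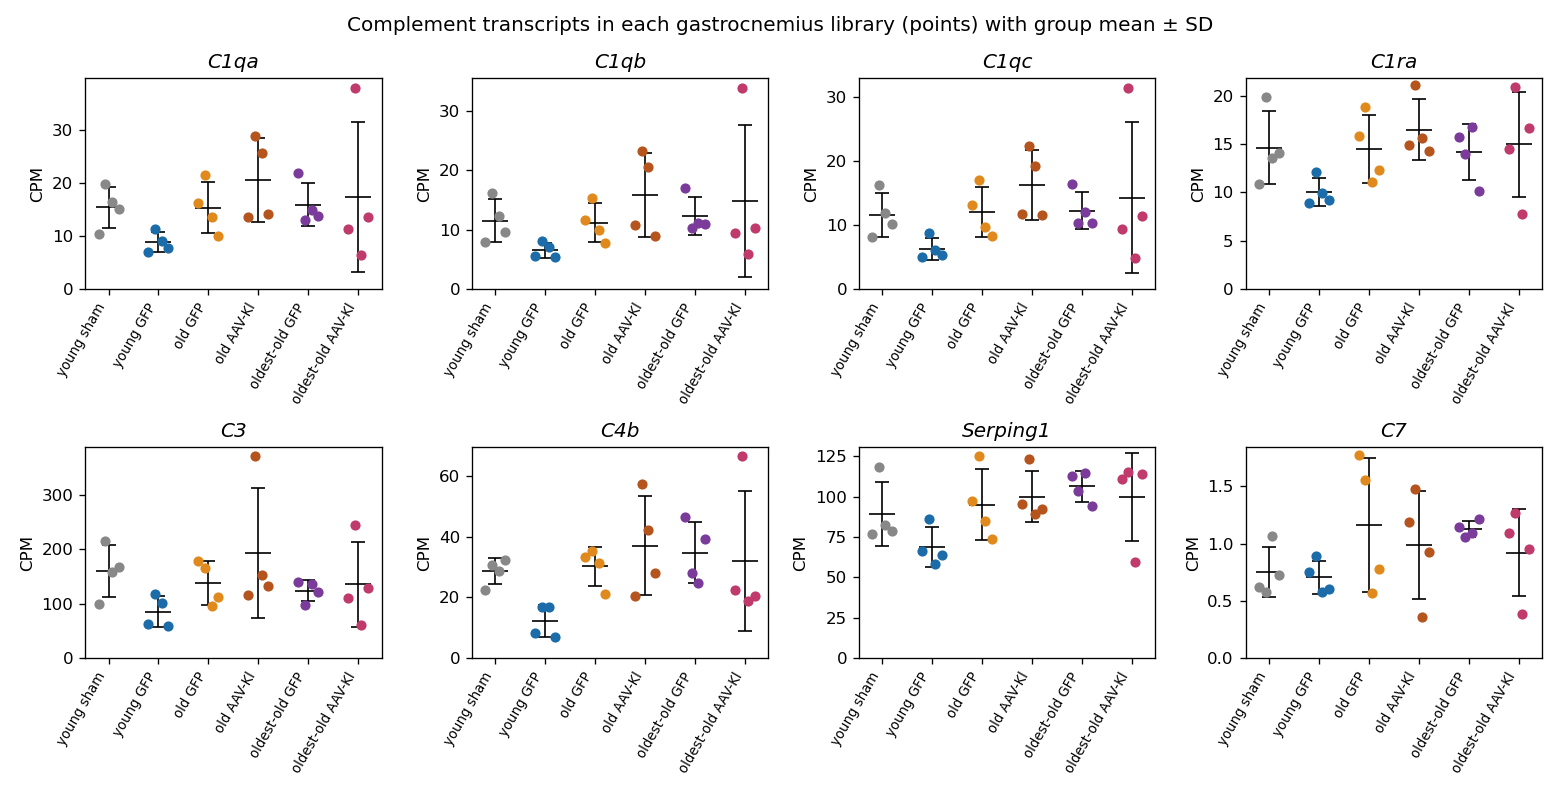
Points give the CPM of the 8 tested complement genes in each of the 24 libraries, by group, with bars at the group mean ± SD and each axis starting at 0. C4b in young GFP lies between 6.98 and 16.7 CPM, below the other GFP groups and below young sham.

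For old against young GFP muscle 0 of the 8 tested complement genes were called by edgeR, against 4.7% of all genes tested (837 genes). At an unadjusted p under 0.05 there were 4 of the 8 (and 3399 of all genes), and DESeq2 called 1 (and 1226 of all genes). In oldest-old against young GFP muscle 2 of the 8 were called, C4b and Serping1, against 14.9% of all genes (2649 genes). At an unadjusted p under 0.05 there were 5 of the 8 in that comparison, against 29.8% of all genes. DESeq2 also called 2 of the 8, against 3100 of all genes. Groups did not overlap, with the older group higher, for 1 gene in old mice (C4b), against 8.69% of all genes, and for 6 in oldest-old mice (C1qa, C1qb, C1qc, C4b, Serping1 and C7), against 10.4% of all genes. The median log2 fold change of the 8 genes was 0.76 in both comparisons, against 0.00 and 0.03 over all genes. The comparisons share the 4 young GFP libraries, so their values are set side by side and not counted as separate support.

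Oldest-old and old GFP muscle, which share no library, were compared directly. Log2 differences ranged from -0.15 (C3) to 0.20 (C4b), with C1qa at 0.05, C1qb at 0.14, C1qc at 0.02, C1ra at -0.04, Serping1 at 0.16 and C7 at -0.06. With edgeR, 0 of the 8 genes were called, against 0.00562% of all genes (1 gene). There were 0 of the 8 at an unadjusted p under 0.05, against 11.998% of all genes. DESeq2 called 0 of the 8 and 120 of all genes. Group ranges overlapped for each of the 8 genes.

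Young mice had a second control, the sham group. C4b was at 22.6, 30.8, 28.7 and 32.4 CPM in young sham, each value above all 4 young GFP values. C3 was at 99.1, 215, 158 and 168 CPM, and C1qa at 10.5, 19.7, 16.5 and 14.996 CPM. For both genes young sham 1 was the only sham library within the young GFP range. Serping1 was at 76.7, 118, 82.5 and 78.6 CPM and overlapped young GFP through young GFP 2. Young GFP was lower than young sham by log2 -1.23 (SE 0.39, edgeR adjusted p = 0.179) for C4b, -0.91 for C3, -0.81 for C1qa, -0.82 for C1qb, -0.89 for C1qc, -0.54 for C1ra, -0.38 for Serping1 and -0.09 for C7. None of these 8 differences passed in edgeR or in DESeq2, and 4 had an unadjusted p under 0.05, against 13.4% of all genes. EdgeR called 0.472% of all genes (84 genes) against 290 genes by DESeq2. C4b was the 1 gene of the 8 whose groups did not overlap with young GFP lower, against 5.19% of all genes. The median log2 difference was -0.81 for the 8 genes and -0.03 for all genes.

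Against young sham, the log2 differences of the older GFP groups were between -0.37 and 0.28 for 7 of the 8 genes and larger for C7, at 0.65 (edgeR adjusted p = 0.357) in old and 0.59 (edgeR adjusted p = 0.325) in oldest-old mice. C4b differed by log2 0.08 (edgeR adjusted p = 0.934) in old and 0.28 (edgeR adjusted p = 0.661) in oldest-old mice, and Serping1 by log2 0.09 and 0.26. C3 was lower in the older groups by this control, at log2 -0.22 and -0.37, and C1ra at log2 -0.01 and -0.05. In old mice edgeR called 0 of the 8, against 3.67% of all genes (653 genes), and 0 of the 8 in oldest-old mice, against 11.6% of all genes (2064 genes). In each of these comparisons 0 of the 8 had an unadjusted p under 0.05, against 20.6% (old) and 29.1% (oldest-old) of all genes. DESeq2 called 0 of the 8 in each, against 1196 and 2705 of all genes. Group ranges overlapped for all 8 genes in both comparisons, whereas 15.5% and 16% of all genes had groups that did not overlap. Thus the age difference of C4b and Serping1 was found against young GFP and not against young sham, while the number of genes called over all was of the same order with either control. What separates these results is the difference between the young groups, which did not pass the test for either gene. Comparison with young sham was chosen after the data were seen. It may differ in more than age, since the sham procedure is not described.

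**Figure D2:**
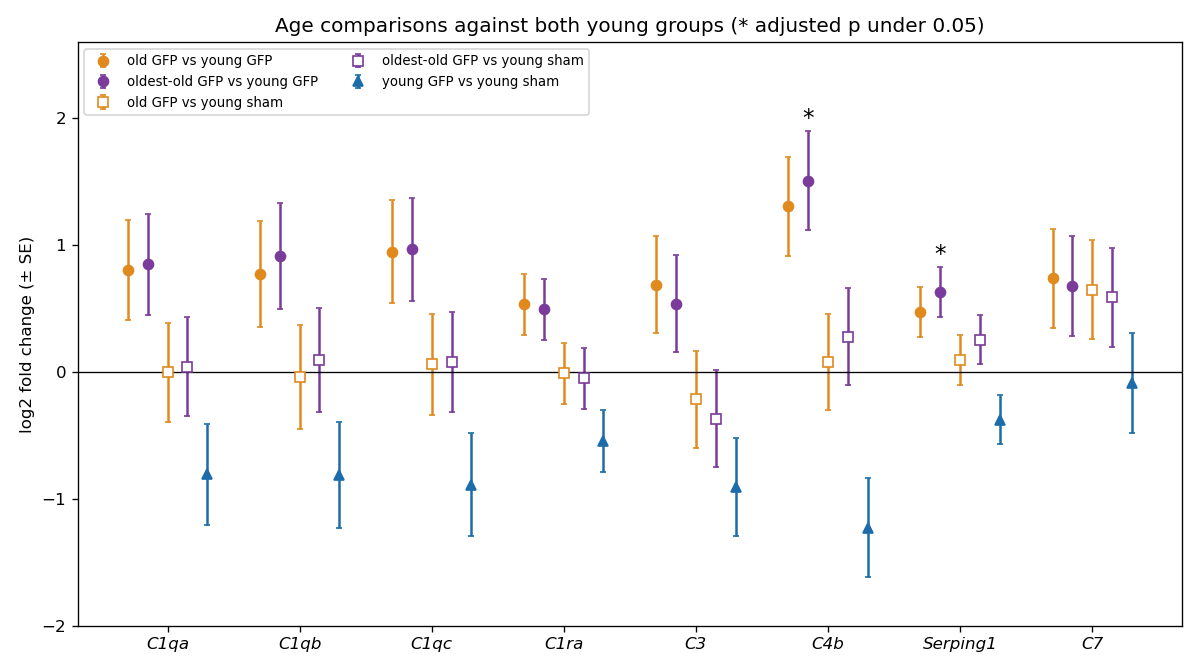
Log2 fold change with SE of each tested complement gene in old and oldest-old GFP muscle against young GFP (filled) and young sham (open), and of young GFP against young sham (triangles), with an asterisk where the adjusted p was under 0.05. C4b in oldest-old mice is at 1.51 against young GFP and at 0.28 against young sham.

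Markers of other cells are given for the same groups. The 12 macrophage markers, with Csf1r as the most abundant and none at 0 in any library, summed to 43.3, 70.2, 51.8 and 43.5 CPM in young GFP and to 55.9, 108, 78.1 and 72.6 CPM in young sham. Their sums were 81.9, 110, 60.9 and 55.1 CPM in old GFP and 91.8, 70.2, 81.8 and 69.9 CPM in oldest-old GFP. Like C1qa, the macrophage list had its lowest group mean in young GFP. EdgeR called 0 of the 12 in old and 0 of the 12 in oldest-old against young GFP, against 4.7% and 14.9% of all genes, and DESeq2 called 0 and 1 (Cd68). At an unadjusted p under 0.05 there were 3 and 4 of the 12, against 19.1% and 29.8% of all genes. Their median log2 fold changes were 0.72 and 0.73. C1qa divided by the macrophage sum varied less than C1qa itself, from 0.161 to 0.277 (coefficient of variation 14.4%). This ratio was 0.170 ± 0.00929 in young GFP and 0.197 ± 0.0141 in young sham (SD, n = 4), and all 4 young GFP values lay below those of young sham, old GFP and oldest-old GFP. The low value depended on the divisor. C1qa divided by Csf1r alone was 0.964 ± 0.124 in young GFP and 0.938 ± 0.116 in young sham (SD, n = 4). It was 0.905 ± 0.114 in old GFP and 0.967 ± 0.204 in oldest-old GFP. Between young GFP and young sham the macrophage sums overlapped and edgeR and DESeq2 called 0 of the 12 markers, with 4 at an unadjusted p under 0.05, against 0.472% and 13.4% of all genes in edgeR. The part of macrophage content in the complement differences was not tested.

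The 7 adipocyte markers, with Fabp4 as the most abundant and none at 0, summed to 414, 1026, 698 and 409 CPM in young GFP and to 369, 827, 992 and 1129 CPM in young sham. They summed to 697, 569, 768 and 542 CPM in old GFP and to 741, 685, 503 and 716 CPM in oldest-old GFP. Between the young groups the sums overlapped, and edgeR and DESeq2 called 0 of the 7, with 0 at an unadjusted p under 0.05. Young GFP 1 and 4, low in C4b and C3, were also the lowest of their group in adipocyte markers. With the adipocyte mean as a covariate, added after the data were seen, C4b differed from young GFP by log2 1.12 (edgeR adjusted p = 0.0130) in old and 1.58 (edgeR adjusted p = 0.000409) in oldest-old mice. The part of adipocyte content in this difference was not tested further, and C4b and the adipocyte gene Adipoq deviated together from their group means (Pearson r = 0.82 over 24 libraries, a description).

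The remaining lists were examined for context. In oldest-old against young GFP muscle, 4 of the 4 tested neutrophil markers were called higher (S100a9 the most abundant, Ly6g and Camp below the filter), as were 1 of 12 interferon response genes (Rsad2, with Gbp2 the most abundant), 1 of 5 endothelial markers (Cldn5, with Cdh5 the most abundant) and 1 of 6 B and plasma cell markers (Jchain, also the most abundant). The other 5 B and plasma cell markers had negative log2 fold changes, and the median of the 6 was -2.13. Called lower were 1 of 10 fibroblast markers (Col1a1, with Dcn the most abundant) and 4 of 6 keratinocyte markers. Of the 10 muscle fiber markers 1 was called higher (Myh1) and 2 lower (Myh4 and Pvalb). In this comparison 14.9% of all genes were called. Of the 5 T cell markers, with Cd3e the most abundant, edgeR called 0 and DESeq2 1, with 1 at an unadjusted p under 0.05. Of the 3 acute phase genes tested, with Hp the most abundant and Saa1, Saa2 and Saa3 below the filter, edgeR and DESeq2 called 0, with 0 at an unadjusted p under 0.05. B and plasma cell markers with an unadjusted p under 0.05 against young sham numbered 6 of 6 in old and 5 in oldest-old GFP. Their median log2 differences were -3.97 and -3.33, with 1 marker positive in each. T cell markers under that p numbered 4 of 5 in each, at medians of -3.76 and -3.79. The shares of all genes were 20.6% and 29.1%. EdgeR called 0 in old GFP, and Jchain (higher) and Cd8a (lower) in oldest-old GFP. The part of these cells was not tested.

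**Figure D3:**
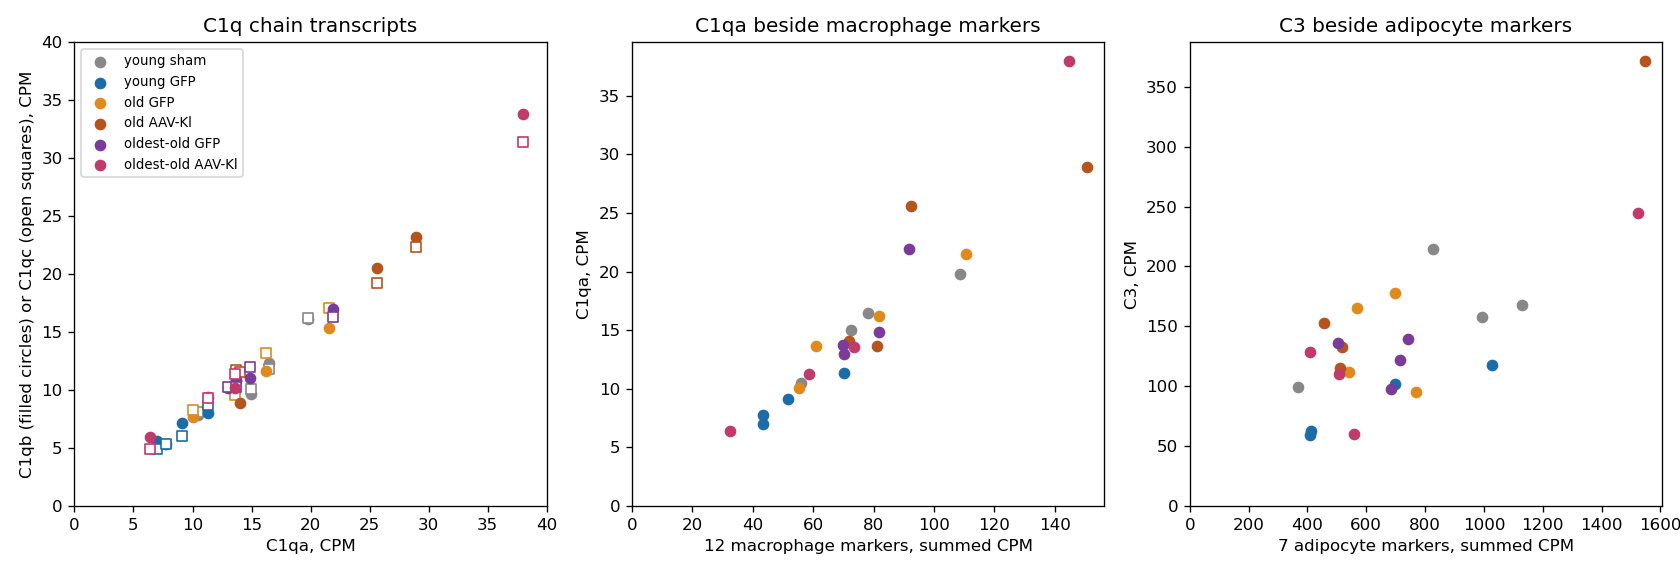
Each point is 1 of the 24 libraries, colored by group. The panels plot the CPM of C1qb (circles) and C1qc (squares) against C1qa, C1qa against the summed CPM of the 12 macrophage markers, and C3 against the summed CPM of the 7 adipocyte markers, and the highest C1qa value, 38.0 CPM in oldest-old AAV-Kl 2, comes with a macrophage sum of 145 CPM.

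The effect of Klotho was examined within each age. In old AAV-Kl muscle C1qa was at 13.7, 28.9, 25.6 and 14.05 CPM. C3 was at 115, 371, 153 and 133 CPM, C4b at 20.5, 57.3, 42.3 and 27.9 CPM, and Serping1 at 95.1, 123, 88.9 and 92.3 CPM. Library 2 was the highest of its group for each of the 4 genes, and all of them overlapped old GFP. The log2 fold change against old GFP was 0.42 (SE 0.39) for C1qa, 0.49 (SE 0.38) for C3, 0.29 (SE 0.38) for C4b and 0.07 (SE 0.20) for Serping1. Calls by edgeR numbered 0 of the 8 genes and 0% of all genes. At an unadjusted p under 0.05 there were 0 of the 8 and 383 of all genes, and DESeq2 called 0 of the 8 and 0 of all genes. Groups did not overlap for 0 of the 8, against 1.68% of all genes. Without old AAV-Kl 2 the difference of C3 was -0.04.

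In oldest-old AAV-Kl muscle C1qa was at 11.3, 38.0, 6.40 and 13.6 CPM, the widest spread of any group. C3 was at 110, 245, 59.8 and 128 CPM, C4b at 22.4, 66.5, 18.7 and 20.5 CPM, and Serping1 at 111, 115, 59.3 and 114 CPM. Library 2 was the highest and library 3 the lowest for each of the 4 genes, and the groups overlapped. Log2 differences from oldest-old GFP were 0.13 (SE 0.39, edgeR adjusted p = 0.947) for C1qa, 0.13 (SE 0.38, edgeR adjusted p = 0.943) for C3, -0.11 (SE 0.38, edgeR adjusted p = 0.950) for C4b and -0.09 (SE 0.20, edgeR adjusted p = 0.918) for Serping1. EdgeR called 0 of the 8, against 0.0112% of all genes (2 genes). There were 0 of the 8 at an unadjusted p under 0.05, against 8.08% of all genes, and DESeq2 called 0 of the 8 and 25 of all genes. Groups did not overlap for 0 of the 8, against 2.65% of all genes. Leaving out oldest-old AAV-Kl 2 moved C1qa to -0.61, which turned its sign. Leaving out oldest-old AAV-Kl 3 moved it to 0.41.

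These libraries also stood apart in markers. The macrophage sum was 81.0, 151, 92.3 and 71.8 CPM in old AAV-Kl and 58.7, 145, 32.4 and 73.6 CPM in oldest-old AAV-Kl. The adipocyte sum was 511, 1546, 456 and 518 CPM in old AAV-Kl and 506, 1522, 557 and 407 CPM in oldest-old AAV-Kl. Library 2 of either group, highest in C3 and C4b, was the highest in both lists, and the part of these cells in the values was not tested. The difference between the Klotho effects at the older and the younger of these ages was tested as an interaction, and it was -0.29 (SE 0.55) for C1qa, -0.36 (SE 0.54) for C3 and -0.41 (SE 0.54) for C4b in log2. EdgeR called 0 of the 8 in this test, against 0.00562% of all genes (1 gene). There were 0 of the 8 at an unadjusted p under 0.05, against 5.76% of all genes, and DESeq2 called 0 of the 8 and 1 of all genes.

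Liver transcripts bear on the wider pathway, since hepatocytes make most plasma complement. The 20 hepatocyte markers, with Cyp2e1 the most abundant, summed to 1101, 17.7, 11.9 and 160 CPM in old GFP, and to 16.7, 65.8, 58.3 and 14.5 CPM in young GFP. The sums were 24.1, 94.2, 63.7 and 160 CPM in young sham, and 26.4, 8.32, 12.5 and 82.2 CPM in oldest-old GFP. They were 46.4, 144, 26.01 and 186 CPM in old AAV-Kl and 5.59, 88.5, 7.46 and 16.2 CPM in oldest-old AAV-Kl. Outside the hepatocyte-rich libraries the sums were carried mostly by Cyp2e1. It was at 64.0 of the 65.8 CPM in young GFP 2, where Alb was at 1.09 CPM, and at 12.8 of the 17.7 CPM in old GFP 2. In old against young GFP muscle 17 of the 20 were called higher, against 4.7% of all genes in either direction, with a median log2 fold change of 8.39. The groups did not overlap for 3 of the 20, since old GFP 2 and 3, with mean log2 CPM of -2.67 and -4.47, lay near young GFP. In old GFP 1, the library with by far the most of these transcripts, C3 was at 178 CPM and C4b at 33.3 CPM, beside 166 and 35.4 CPM in old GFP 2. Without the 4 hepatocyte-rich libraries the log2 fold change of C4b was 1.44 (edgeR adjusted p = 0.174) in old against young GFP mice. None of these 4 libraries is in oldest-old GFP or young GFP. In that comparison C4b was still called without them, at log2 1.49 (edgeR adjusted p = 0.0285), and Serping1, at log2 0.61 (edgeR adjusted p = 0.0597), was no longer called. The calls of Masp1 and Cr1l were lost as well (edgeR adjusted p = 0.0508 and 0.0597), at log2 0.61 and -0.18 against 0.63 and -0.16 with all libraries.

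Of 37 other complement genes, 28 were tested. Below the filter were C1rb, C1s2, Mbl1, Mbl2, Fcnb, C8a, C8b, C9 and C4bp. In old against young GFP muscle edgeR called 3 of the 28 higher and 0 lower, against 4.7% of all genes in either direction. At an unadjusted p under 0.05 there were 6 of the 28, against 19.1% of all genes. DESeq2 called 4 of the 28, Cr1l added, against 1226 of all genes. Hc, which encodes C5, rose by log2 5.05 (edgeR adjusted p = 0.0450), Cfi, the protease that cuts deposited C3b and C4b, by log2 3.74 (edgeR adjusted p = 0.0459), and Vsig4, a macrophage receptor for C3b, by log2 2.58 (edgeR adjusted p = 0.0367). Hc was at 3.42, 0.04, 0.03 and 1.08 CPM in old GFP and Cfi at 4.88, 0.09, 0.03 and 0.78 CPM, so that libraries 1 and 4, both hepatocyte-rich, held nearly all reads. Mbl2, a lectin made in liver, had the same pattern at 3.46, 0.00, 0.00 and 0.64 CPM. Without the hepatocyte-rich libraries the log2 fold change was 0.03 for Hc, -0.74 for Cfi and 2.22 for Vsig4, with edgeR adjusted p of 0.998, 0.782 and 0.237 (ranges over 19 alternatives 0.0119 to 0.998 for Hc, 0.00776 to 0.782 for Cfi and 0.0131 to 0.312 for Vsig4). Without old GFP 1 alone it was 3.46 for Hc, 1.45 for Cfi and 2.07 for Vsig4, and none of the 3 was called. The calls of Hc and Cfi were also lost without old GFP 4 (adjusted p = 0.0632 and 0.0515), at log2 5.08 and 3.94. Leaving out any single young GFP library lost them too (adjusted p between 0.0660 and 0.118 for Hc and between 0.0917 and 0.117 for Cfi). Their log2 fold changes were then 4.70 to 6.77 for Hc and 3.51 to 4.02 for Cfi. The call of Vsig4 was lost without young GFP 2 (adjusted p = 0.0845), 3 (adjusted p = 0.111) or 4 (adjusted p = 0.102), old GFP 1 (adjusted p = 0.152) or old GFP 2 (adjusted p = 0.0661), at log2 between 2.07 and 2.59. It was also lost with the hepatocyte markers as a covariate (edgeR adjusted p = 0.312, log2 1.91) and against young sham (0.177, log2 1.44). Further losses came without the keratinocyte-rich libraries (edgeR adjusted p = 0.0962, log2 4.08), with no filter on low counts (0.0547, log2 2.57) and without young sham (0.0538, log2 2.58).

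**Figure D4:**
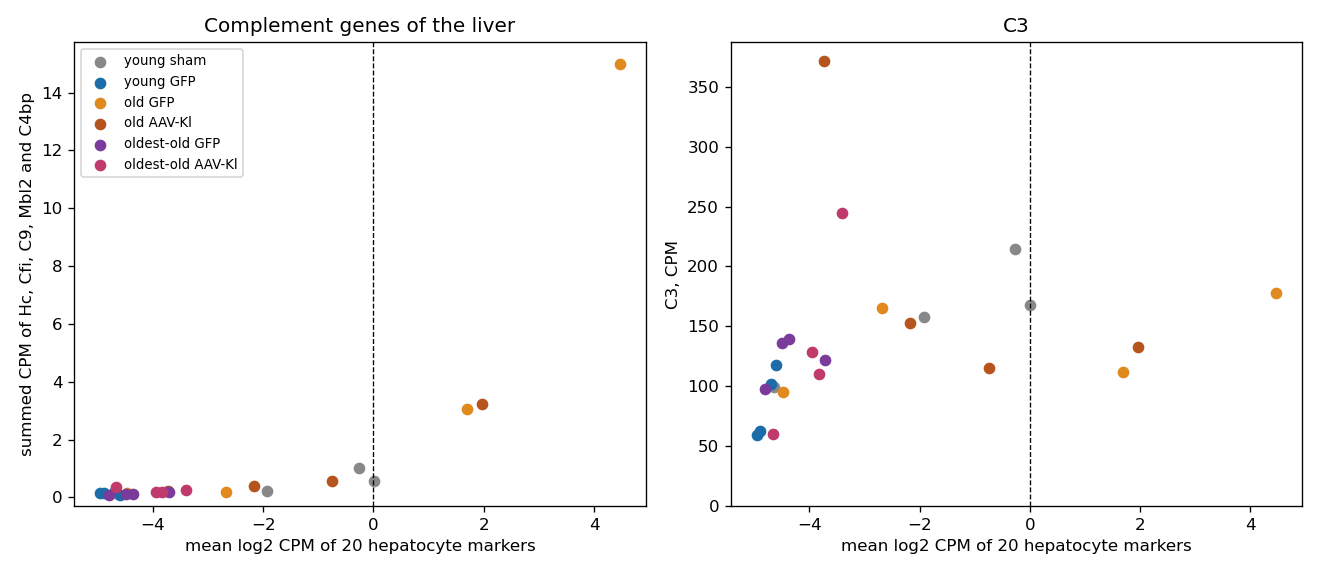
Summed CPM of Hc, Cfi, C9, Mbl2 and C4bp (left) and CPM of C3 (right) against the mean log2 CPM of the 20 hepatocyte markers in each of the 24 libraries, with a dashed line at 0. Old GFP 1, at 4.46 on the horizontal axis, has the highest sum of these complement genes, and its C3 level is 178 CPM.

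In oldest-old against young GFP muscle 2 of the 28 were called higher and 1 lower, against 14.9% of all genes in either direction, so the share was not above the background. At an unadjusted p under 0.05 there were 8 of the 28, against 29.8% of all genes. DESeq2 called 4 of the 28, C3ar1 added, against 3100 of all genes. Vsig4 was at 0.12, 0.02, 0.02 and 0.00 CPM in young GFP and at 0.56, 0.29, 0.20 and 0.73 CPM in oldest-old GFP, and the groups did not overlap. It rose by log2 3.44 (SE 0.67, edgeR adjusted p = 0.00217), and it was also called against young sham, at log2 2.30 (edgeR adjusted p = 0.0155). The size of this difference was uncertain, at log2 4.71 without young GFP 1 and between 2.30 and 4.93 over the 19 alternatives. Vsig4 kept its call under all 19, with adjusted p from 0.000134 to 0.0189, on 284 reads in all libraries together. Masp1, a protease of the lectin pathway, rose by log2 0.63 (edgeR adjusted p = 0.0349). Cr1l, a membrane regulator, fell by log2 0.16 (edgeR adjusted p = 0.0493), from 34.4 to 36.2 CPM in young GFP to 29.7 to 34.6 CPM in oldest-old GFP. The call of Masp1 was lost under 11 of 20 alternatives and that of Cr1l under 14. Single libraries whose removal was enough were young GFP 2 (adjusted p = 0.0612), 3 (0.0904) and 4 (0.122) and oldest-old GFP 1 (0.150) and 4 (0.121) for Masp1. For Cr1l each of the 8 libraries was enough except young GFP 3 and oldest-old GFP 3 (adjusted p from 0.0626 to 0.0929). Of the 28 genes edgeR called 0 in oldest-old against old GFP, in either Klotho comparison and in young GFP against young sham. At an unadjusted p under 0.05 these comparisons held 4, 1 (old), 2 (oldest-old) and 5 of the 28. The shares of all genes at that p were 11.998%, 2.15%, 8.08% and 13.4%. DESeq2 called 2 (Hc and Cfi), 0, 0 and 0 of the 28, against 120, 0, 25 and 290 of all genes. The most abundant gene of each role, C1s1, Cfd, C8g, Clu, Cd55 and Cd93, was called in none of these comparisons.

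Genes whose deviations from their group means most resembled those of complement genes were found over the 24 libraries, complement genes left out. For the mean of C1qa, C1qb and C1qc they were Cd68 (Pearson r = 0.96), Stab1 (0.96), Lyz2 (0.96), Fcer1g (0.95) and Ccl9 (0.95). For C3 they were Selenop (0.94), Gm2a (0.94), Apoe (0.93), Fcgrt (0.92) and Rarres2 (0.92). For C4b they were H2-D1 (0.93), Ppm1m (0.93), Lgals3bp (0.92), Tmem176b (0.91) and Blvrb (0.91). C1q itself correlated with C3 at 0.87, with C4b at 0.84 and with Serping1 at 0.72. With Alb the r was 0.17 for C1q and 0.37 for C3, the latter 0.53 without library 2 of both AAV-Kl groups. With Adipoq it was 0.70 for C1q and 0.81 for C3. The values compared come from the same libraries and share their depth and scaling, and these r values are descriptions. Leaving out the 2 libraries farthest from their group mean gave 0.91 for Cd68 with C1q (without oldest-old AAV-Kl 2 and 3), 0.91 for Selenop with C3 (without library 2 of both AAV-Kl groups) and 0.88 for H2-D1 with C4b (without oldest-old AAV-Kl 2 and old AAV-Kl 1).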

How the data were processed

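Unstranded gene counts deposited by the authors, made with STAR on mm10, were used as given. Gene models were taken from GENCODE M21, which matched 55144 of the 55385 gene identifiers and all 9 complement genes. Genes were filtered with filterByExpr by group, scaled by TMM and fitted in edgeR 4.0.16 (R 4.3.3) with glmQLFit and glmQLFTest, with the 6 group means and 18 residual degrees of freedom. DESeq2 1.42.0 was run as an alternative. Log2 CPM used a prior count of 0.5 reads. Hepatocyte-rich and keratinocyte-rich libraries were those with a mean log2 CPM of the marker list above 0. Complement genes, pathway genes and marker lists were chosen with earlier results of these data known. Named were all 9 complement genes, the most abundant gene of each role or list, list genes at 0 or below the filter, and the 5 genes most like C1q, C3 and C4b. Other complement genes were named where edgeR called them in a comparison, or DESeq2 against young GFP. DESeq2 also called Cr2 in oldest-old mice against young sham. Mbl2 reads in the old GFP libraries, and the list genes called with age, were chosen for printing after their values were seen. No library pair was a duplicate.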

Additional observations from a re-analysis of the deposited data

Results flagged for a closer look

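In 48 combinations of a tested complement gene and a group, the gap between the highest or lowest library and its neighbor was compared with the range of the group by Dixon's ratio of log2 CPM at the 95% level. A library stood apart in 4 of the 48, and chance gives about 1 in 20. C1qb in oldest-old GFP 1 was at 16.996 CPM, with the next library at 11.04 CPM (ratio 0.8423). C4b in oldest-old AAV-Kl 2 was at 66.5 CPM, with the next at 22.4 CPM (ratio 0.8587). Serping1 in young sham 2 was at 118 CPM, with the next at 82.5 CPM (ratio 0.8339). Serping1 in oldest-old AAV-Kl 3 was the lowest at 59.3 CPM, with the next at 111 CPM (ratio 0.9418). On the CPM scale 6 stood apart, with C3 in old AAV-Kl 2 (ratio 0.853) and C1qb in oldest-old AAV-Kl 2 (ratio 0.848) added, so the count depends on the scale.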

How the results depend on the processing

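The alternatives with young sham as the control, the adipocyte covariate and the removal of keratinocyte-rich libraries were chosen after seeing the data. In old against young GFP muscle the count of complement genes called, 0, became 1 with DESeq2 (C4b), 2 with only the compared groups fitted (C1qc and C4b), 1 with the replicate number as a block (C4b) and 1 with the adipocyte covariate (C4b). In oldest-old against young GFP muscle the count of 2 became 1 with no filter on low counts, 5 with only the compared groups, 1 without hepatocyte-rich libraries, 0 without keratinocyte-rich libraries and 0 with young sham, and ranged from 0 to 2 when a library was left out. It was 3 with the replicate block, although replicate numbers did not pair samples. Fewer samples were fitted in several of these, and otherwise the cause was not tested.

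Signs changed as follows, in log2. With young sham, old mice differed by -0.00379 for C1qa, -0.0399 for C1qb, -0.0104 for C1ra and -0.215 for C3, and oldest-old mice by -0.0490 for C1ra and -0.368 for C3. With the hepatocyte covariate, old mice differed from young GFP by -0.605 for Hc and -1.37 for Cfi, oldest-old from old by -0.0212 for C1qa, 0.0299 for C1ra and 0.194 for C7, and young GFP from sham by 0.0805 for C7. Without hepatocyte-rich libraries Cfi was at -0.735, oldest-old against old gave -0.152 for C1qa, -0.0493 for C1qb, -0.133 for C1qc and 0.0725 for C7, and old AAV-Kl gave -0.0323 for Serping1. With the adipocyte covariate, oldest-old against old gave 0.0709 for C1ra, 0.118 for C3 and 0.0685 for C7, and young GFP against sham 0.105 for C7. Without keratinocyte-rich libraries, old AAV-Kl gave -0.0381 for C3 and -0.0432 for Serping1, oldest-old AAV-Kl 0.0535 for C4b, and young GFP against sham 0.0101 for C7. With the replicate block, oldest-old against old gave 0.0514 for C7, and oldest-old AAV-Kl -0.0807 for C1qa and -0.0320 for C3.

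Leaving out 1 library gave, for oldest-old against old, -0.149 to 0.255 for C1qa, -0.0632 to 0.332 for C1qb, -0.155 to 0.235 for C1qc, -0.147 to 0.113 for C1ra and -0.281 to 0.209 for C7. The range in old AAV-Kl was -0.0413 to 0.667 for C3, -0.000361 to 0.490 for C4b and -0.0466 to 0.230 for Serping1. In oldest-old AAV-Kl it was -0.606 to 0.407 for C1qa, -0.316 to 0.384 for C3, -0.755 to 0.0775 for C4b and -0.168 to 0.0945 for Serping1, and in young GFP against sham -0.203 to 0.151 for C7.

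With 4 libraries a group and SE of 0.38 to 0.42 for C1q, C3 and C4b, log2 differences as large as 0.97 (C1qc in oldest-old mice) and 1.31 (C4b in old mice) were not called. Reads were few for C7, Cfb, Vsig4, Hc and Cfi, and the part of read number in their results was not tested.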
